A study of Mus musculus with 11 samples.

Results

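Matrix metalloproteinases, ADAM, ADAMTS and ADAMTS-like proteins and the tissue inhibitors of metalloproteinases (TIMPs) were examined across insulin-resistance treatments of 3T3-L1 adipocytes, a mouse cell line grown as preadipocytes and differentiated into fat cells in culture. Members were all genes whose single symbol in the platform annotation was Mmp, Adam, Adamts, Adamtsl or Timp followed by a number and, in some cases, a letter. This gave 70 of the 18193 genes on the array, made up of 18 Mmp, 4 Timp, 28 Adam, 15 Adamts and 5 Adamtsl genes. Each gene was represented by its brightest probe set, which was the choice among several for 32 of the 70. Of the 70 members, 52 lay above the limit for dim probe sets and were tested, and 18 lay below it.

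The 11 arrays fell into 4 groups. The CI arrays (chronic insulin, n = 2) came from adipocytes given 10 nM insulin in 4 additions. The TNF arrays (n = 3) came from adipocytes kept for 4 days in 2 ng/ml tumour necrosis factor alpha. The DEX arrays (n = 3) came from adipocytes treated for 8 days with 20 nM dexamethasone, a synthetic glucocorticoid, for which the labels name 0.01% ethanol as the carrier control. The control arrays (n = 3) are labelled as having no treatment, and the labels do not say whether these cells received carrier. Treatments were staggered, so cells of all groups were harvested at a like age after differentiation. All groups are 1 cell line in culture, with no fat tissue around the cells, although the labels give the tissue as adipose. The labels do not say that replicates were separate cultures, so the p-values below measure only the spread between these arrays, which may be technical.

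Matrix metalloproteinases (MMPs) are zinc enzymes that cut collagens, gelatins, proteoglycans and other proteins of the extracellular matrix. They are made as inactive zymogens and are held in check by the TIMPs, which bind the active site. ADAMs are membrane proteins, several of which cut the outer part off other membrane proteins (shedding), while ADAMTS enzymes are secreted and cut proteoglycans such as versican and aggrecan or process procollagens. In fat tissue, remodelling of the matrix accompanies the growth of adipocytes and their formation from fibroblast-like precursors.

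Intensities below are the deposited linear array values, listed in replicate order. Differences are log2 fold changes of intensity plus 16, with limma's standard error (SE) and Benjamini-Hochberg adjusted p over the 15623 genes tested. A call is an adjusted p under 0.05, and "rose" and "fell" are used only of calls. Array medians ran between 124.5 and 129.5. The adipocyte products Adipoq and Fabp4 were near the top of the scale on every array, at 20816 to 23388 and 21646 to 23317. Summed intensity of 9 adipocyte markers was 109259 to 112135 on CI arrays, 95678 to 98748 on TNF arrays, 108499 to 116899 on DEX arrays and 112310 to 114217 on control arrays. Of these 9, 1 rose and 1 fell in CI, 5 fell in TNF, and 2 rose and 4 fell in DEX. Summed intensity of 10 preadipocyte and fibroblast markers was 35364 to 36541 on CI arrays, 49209 to 52279 on TNF arrays, 33032 to 37707 on DEX arrays and 40355 to 46106 on control arrays. Of the 9 tested ones, 5 fell in CI, 5 rose in TNF, and 2 rose and 4 fell in DEX. Summed intensity of 10 macrophage and leukocyte markers was 3910 to 4228 on CI arrays, 6085 to 6551 on TNF arrays, 3322 to 3819 on DEX arrays and 4673 to 4850 on control arrays. Of their 8 tested genes, 1 rose and 2 fell in CI, 3 rose in TNF, and 1 rose and 3 fell in DEX. The markers of that list differed widely: Ptprc, at 22.3 to 28.2, and Itgam, at 45.6 to 57.7, were dim on all arrays and not tested, Adgre1 and Cd68 lay at 90.1 to 117 and 68.0 to 114, and Cd53, Itgb2 and Csf1r lay at 117 to 226, 123 to 304 and 343 to 505. Cd14, at 245 to 1322, rose in TNF (1.48) and DEX (0.90) and fell in CI (-0.68). Mpeg1, at 245 to 1342, rose in CI (0.57) and fell in DEX (-1.67), and Lyz2, at 1335 to 3030.2, rose in TNF (0.34) and fell in CI (-0.64) and DEX (-0.62). Of 5 endothelial markers 2 were tested, and neither was called against control. The shares of all tested genes called in each comparison are given in the next paragraph. The part of these markers in the results below was not tested. In such bulk RNA, fewer cells of a type and less RNA per cell cannot be told apart. The 9 hybridization spike probe sets were all lower on average than in control, with medians of -0.25 in CI, -0.08 in TNF and -0.06 in DEX on the log2 scale.

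Of the 52 tested members, 4 rose and 9 fell in CI, against 8.38% of all tested genes called higher and 8.88% called lower (17.3% in either direction). In TNF 17 members rose and 6 fell, against 13.9% of all tested genes called higher and 11.2% called lower (25.2% in either direction). In DEX 6 rose and 10 fell, against 14.0% and 13.6% of all tested genes (27.6% in either direction). The median member difference was -0.01 in CI, 0.00 in TNF and -0.03 in DEX, against 0.01, -0.01 and 0.02 over all tested genes. In at least 1 of these comparisons with the same 3 control arrays, 28 of the 52 tested members were called and 24 were not, and 47.0% of all tested genes were called in at least 1. By family, 7 of 13 tested Mmp genes, all 4 Timp genes, 8 of 19 tested Adam genes, 8 of 11 tested Adamts genes and 1 of 5 Adamtsl genes were among the 28, and no family was tested against the 47.0%.

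**Figure D1:**
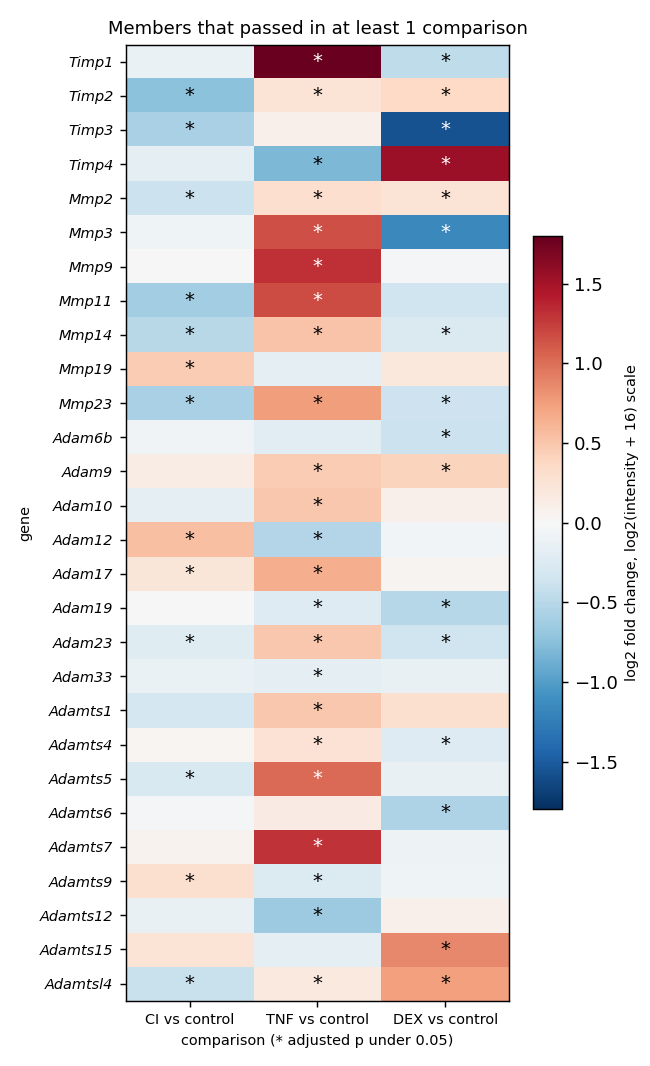
Log2 fold changes against control (colour, with a scale bar) of the members called in at least 1 comparison with control, 1 row per gene and 1 column each for CI, TNF and DEX; marked cells passed an adjusted p under 0.05 in limma. The TNF column holds 17 higher and 6 lower calls, the DEX column 6 and 10, and the CI column 4 and 9.

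The 4 TIMPs were called in different comparisons and directions. Timp1 is a secreted inhibitor of most MMPs. Its intensity was 506 and 458 in CI, 1942, 2145 and 1488 in TNF, 376, 376 and 384 in DEX and 585, 506 and 486 in control. Every TNF array lay above every other array, and every DEX array below every control array. The gene rose in TNF by 1.78 (SE 0.105, adjusted p = 1.95e-08) and fell in DEX, with a log2 fold change of -0.45 (adjusted p = 0.00432). In CI it differed by -0.12 and was not called (adjusted p = 0.564). TNF exceeded DEX by 2.23 (adjusted p = 3.89e-10).

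Timp2 both inhibits MMPs and helps MMP14 to activate pro-MMP2 at the cell surface. It measured 2959 and 3165 in CI, 6224, 6203 and 5789 in TNF, 7014, 6061 and 6594 in DEX and 5614, 5216 and 4575 in control. The CI arrays were the lowest, and the TNF and DEX arrays overlapped each other and lay above the control arrays. Timp2 fell in CI (-0.74, SE 0.0843, adjusted p = 4.73e-05) and rose in DEX (0.35, adjusted p = 0.00238; 0.23 with the mean of its probe sets, adjusted p = 0.0317). The rise in TNF (0.25, adjusted p = 0.0272) had an adjusted p of 0.0871 without TNF replicate 1, 0.0838 without TNF replicate 2, 0.0588 without control replicate 2 and 0.137 without control replicate 3.

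Timp3 binds to the matrix and inhibits ADAM17 as well as MMPs. Intensities were 459.6 and 424 in CI, 664, 775 and 719 in TNF, 217, 215 and 218 in DEX and 607, 649.6 and 763 in control. The DEX arrays were close together and below all others, the CI arrays came next, and TNF and control arrays overlapped. Timp3 fell in DEX (-1.56, SE 0.0775, adjusted p = 9.83e-10) and in CI (-0.58, adjusted p = 0.000334). With the mean of its 4 probe sets the differences were -0.996 in DEX (adjusted p = 1.33e-07) and -0.39 in CI (adjusted p = 0.00307). In TNF the difference was 0.10 (adjusted p = 0.386).

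Timp4 is a secreted inhibitor known to be made by adipocytes. Its intensity was 209 and 143 in CI, 96.2, 94.2 and 127 in TNF, 522, 803 and 518 in DEX and 189.9, 203 and 195 in control. The DEX arrays lay above all others although their own spread was wide, and the TNF arrays lay below all others. Timp4 rose in DEX (1.54, SE 0.153, adjusted p = 1.76e-06) and fell in TNF (-0.81, adjusted p = 0.00122). Its other probe set, with a mean of 270 against 282 for the one used, differed by 0.93 in DEX and -0.34 in TNF. It was lower in TNF than in DEX with a log2 difference of -2.35 (adjusted p = 1.32e-08), while Timp1 and Timp3 were higher in TNF than in DEX. In CI Timp4 differed by -0.16 (adjusted p = 0.602).

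**Figure D2:**
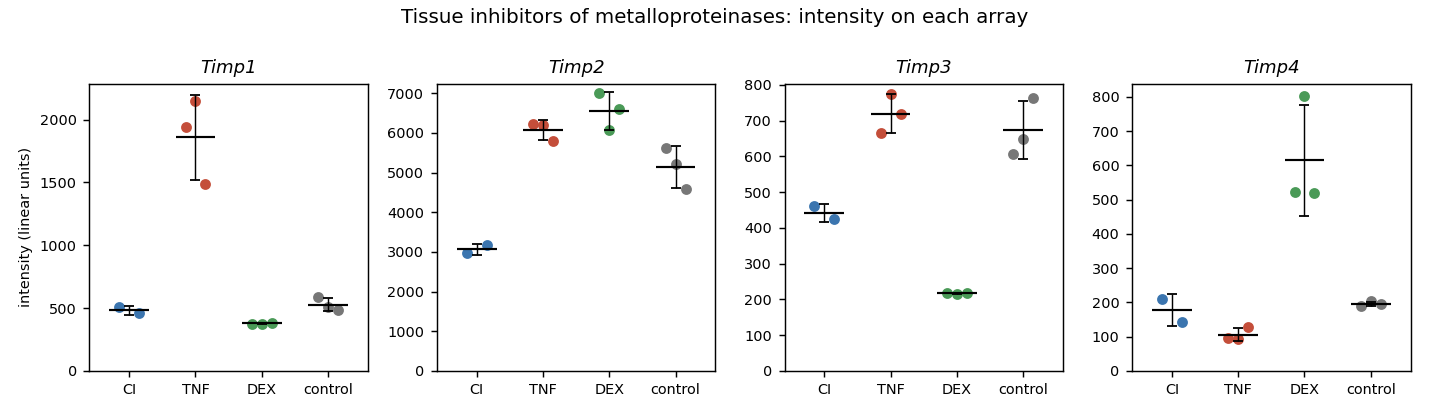
Intensity (linear units, axis from 0, a separate axis for each gene) of Timp1, Timp2, Timp3 and Timp4 on each CI, TNF, DEX and control array (points), with the group mean (line) and SD (bars; n = 2 for CI and 3 for the others). TNF arrays stand highest for Timp1 and lowest for Timp4, and DEX arrays stand highest for Timp4 and lowest for Timp3.

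Both gelatinases, which cut denatured collagen and type IV collagen, rose in TNF. Mmp2 measured 4574 and 5054 in CI, 7922, 7812 and 7670.5 in TNF, 7909, 7239.6 and 7401 in DEX and 6668, 6289 and 5973 in control. The CI arrays lay below and the TNF and DEX arrays above all control arrays. Mmp2 fell in CI (-0.39, adjusted p = 0.00106), rose in TNF (0.31, adjusted p = 0.00162) and rose in DEX (0.25, adjusted p = 0.00524). Mmp9 measured 185 and 185 in CI, 563, 424 and 481 in TNF, 184, 169.9 and 198 in DEX and 185, 189 and 187 in control. The TNF arrays stood apart, and the other 3 groups were close together. Mmp9 rose in TNF by 1.31 (SE 0.0817, adjusted p = 3.42e-08). Its other probe set, with a mean of 108 against 268 for the one used, differed by 2.12 there. In CI and DEX the probe set used differed by -0.01 and -0.02 (adjusted p = 0.959 and 0.879).

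Mmp3 (stromelysin-1) cuts proteoglycans and other matrix proteins and activates other pro-MMPs. Its intensity was 140.2 and 121 in CI, 292, 357 and 337 in TNF, 52.4, 53.6 and 52.3 in DEX and 141, 138 and 136 in control. All TNF arrays lay above and all DEX arrays below the CI and control arrays, which overlapped. Mmp3 rose in TNF by 1.16 (SE 0.07, adjusted p = 2.55e-08) and fell in DEX with a log2 fold change of -1.16 (adjusted p = 7.83e-09). TNF exceeded DEX by 2.32 (adjusted p = 2.63e-12). The DEX values lie at the limit for dim probe sets (51.7), where the DEX difference depends on what is added before taking logs, at -1.37 with 1 added and -0.79 with 64 added. In CI the difference was -0.08 (adjusted p = 0.574).

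Mmp13, a collagenase that cuts fibrillar collagens, was below that limit and was singled out after its values were seen. It measured 33.0 and 36.7 in CI, 72.0, 65.4 and 81.7 in TNF, 21.4, 20.3 and 14.6 in DEX and 40.7, 47.4 and 47.5 in control. The 4 groups did not overlap, with TNF arrays highest and DEX arrays lowest. With no limit on dim probe sets, over 18193 genes, Mmp13 differed by 0.54 in TNF (SE 0.0836, limma's adjusted p = 0.000343), -0.82 in DEX (adjusted p = 4.81e-06) and -0.27 in CI (adjusted p = 0.0746). TNF exceeded DEX by 1.36 there (adjusted p = 2.18e-08). Adding 16 before taking logs understates the fold change of values this dim.

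Mmp3 and Mmp13 lie in a run of 7 members on chromosome 9 with no other protein-coding gene between them, in the order Mmp13, Mmp12, Mmp1b, Mmp3, Mmp1a, Mmp10 and Mmp8 (RefSeq, GRCm38.p6). AP-1, the dimer of Fos and Jun proteins, is known to bind close to the start of several MMP genes. The following 150 bases before the RefSeq start show the promoters of these genes and of a pair of neighbours with other values, on the plus strand, with matches to the AP-1 motif TGANTCA in capitals. Matches to the core promoter motif TATAAA are in capitals too. They lie at chr9:7445672-7445821, chr9:7272364-7272513, chr9:7502192-7502341 and chr9:7558279-7558428.
Mmp3: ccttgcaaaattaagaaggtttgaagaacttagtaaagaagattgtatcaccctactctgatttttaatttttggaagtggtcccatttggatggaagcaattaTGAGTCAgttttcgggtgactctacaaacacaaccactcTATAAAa
Mmp13: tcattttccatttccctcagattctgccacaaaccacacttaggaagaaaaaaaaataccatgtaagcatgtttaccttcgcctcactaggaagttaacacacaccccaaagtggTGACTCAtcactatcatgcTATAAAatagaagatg
Mmp10: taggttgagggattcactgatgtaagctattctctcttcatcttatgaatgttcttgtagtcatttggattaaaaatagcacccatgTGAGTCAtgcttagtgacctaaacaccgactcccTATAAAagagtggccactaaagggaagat
Mmp8: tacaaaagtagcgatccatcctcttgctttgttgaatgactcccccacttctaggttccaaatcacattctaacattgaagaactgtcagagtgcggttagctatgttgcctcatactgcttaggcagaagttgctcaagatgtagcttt
In Mmp3 the AP-1 match begins 46 bases before the start and the TATA match 7 bases before it. In Mmp13 they begin 35 and 16 bases before the start, and in Mmp10 63 and 29 bases before it. The Mmp8 stretch holds neither. RefSeq promoters were given for 41 of the 70 members, in 46 windows, and 250 bases before each start were searched on both strands (TATA on the gene's strand). TGANTCA, which reads alike on both strands, occurred in 10 of the 46 windows (21.7%), against 6.75% of all 32851 windows, and TATAAA in 9 (19.6%, against 7.59%). Several windows, those of Mmp3, Mmp13 and Mmp10 among them, held both motifs, but no AP-1 match shared a base with a TATA match. Among the 9 Mmp genes of chromosome 9 with a promoter, 8 held TGANTCA. Neither the glucocorticoid response element (AGAACA and TGTTCT with 3 bases between them) nor an NF-kappaB motif (GGGA and TTTCC with 1 base between them) was found in the 46 windows, against 0.00913% and 0.356% of all windows. With shares this low, no match is likely in 46 windows, so this absence tells nothing about these promoters. A match is a description of letters and no evidence of binding.

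The tested neighbours of Mmp3 gave no calls. Mmp10 (stromelysin-2) averaged 119.5 ± 5.93 in CI (n = 2), 117 ± 7.59 in TNF, 114 ± 1.02 in DEX and 110.3 ± 18.7 in control (± SD, n = 3 each), with no call against control (TNF 0.08, adjusted p = 0.511; DEX 0.05, adjusted p = 0.699). Mmp8, a collagenase best known from neutrophils, was not called either (TNF -0.03, adjusted p = 0.81; DEX -0.02, adjusted p = 0.843). Mmp7 (matrilysin), whose promoter holds TGANTCA, was not called in TNF (0.01, adjusted p = 0.954) or in DEX (0.16, adjusted p = 0.12). Mmp12 (macrophage elastase), Mmp1a, Mmp1b and Mmp20 (enamelysin) lay between 15.5 and 27.6 on all arrays, below the limit.

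**Figure D3:**
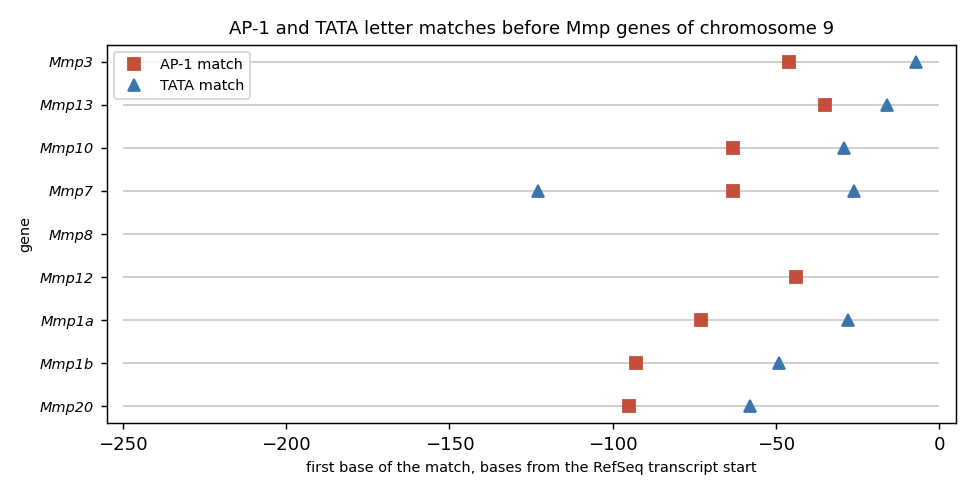
Position of each AP-1 match (TGANTCA, red squares) and each match to the core promoter motif (blue triangles) in the 250 bases before the RefSeq start of the 9 Mmp genes of chromosome 9, 1 line per gene, with the first base of the match on the horizontal axis (bases from the start). Of the 9 genes 8 hold TGANTCA, between 35 and 95 bases before the start, and the Mmp8 line is empty.

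Of the 8 tested genes for AP-1 proteins, 3 rose in CI, 3 rose and 2 fell in TNF, and 2 rose and 1 fell in DEX. Of all tested genes, 17.3% were called in either direction in CI, 25.2% in TNF and 27.6% in DEX. Fosl1 rose in all 3 comparisons (0.48 in CI, 0.55 in TNF and 0.37 in DEX, where arrays overlapped control). Fosl2 rose in TNF by 0.71 (adjusted p = 2.17e-06) and in DEX by 0.85 (adjusted p = 1.59e-07), the lowest adjusted p of the list in both. Junb rose in TNF by 1.32 (adjusted p = 0.00016), and Fos in CI by 0.70 (adjusted p = 0.000226). Jun fell in TNF (-0.46) and in DEX (-0.41).

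Mmp11 (stromelysin-3), which furin activates inside the cell, measured 444 and 720.3 in CI, 1993, 2379 and 1691 in TNF, 665, 635 and 746 in DEX and 856, 793 and 1009 in control. TNF arrays were the highest, and CI and DEX arrays all lay below the control arrays. Mmp11 rose in TNF by 1.17 (SE 0.149, adjusted p = 4.04e-05). Its fall in CI (-0.62, adjusted p = 0.0174) rested on single arrays, since it was -0.29 (adjusted p = 0.333) without CI replicate 1, was -0.96 (adjusted p = 0.00204) without CI replicate 2 and had an adjusted p of 0.0539 without control replicate 3. In DEX the difference was -0.37 (adjusted p = 0.0838), which passed without either CI array (adjusted p = 0.0263 for both) and with only DEX and control arrays in the fit (0.0103).

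Mmp14, the membrane-bound activator of pro-MMP2, measured 1940.2 and 2355 in CI, 4445, 4347 and 4187 in TNF, 2567, 2527 and 2514 in DEX and 3315, 2908 and 2897 in control. TNF arrays lay above, and CI and DEX arrays below, every control array. Mmp14 fell in CI (-0.50, adjusted p = 0.000617) and rose in TNF (0.51, SE 0.0719, adjusted p = 0.000102). The fall in DEX (-0.26, adjusted p = 0.0145) was lost without control replicate 1 (adjusted p = 0.0769). Mmp14, Mmp2 and Timp2, the members of the pro-MMP2 activation complex, each fell in CI and rose in TNF. In DEX Mmp2 and Timp2 rose and Mmp14 fell. Of these calls, those of Timp2 in TNF and Mmp14 in DEX were lost on leaving out single arrays.

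Mmp23, an MMP anchored by its amino-terminal end, measured 572 and 634 in CI, 1543, 1460.0 and 1627 in TNF, 656, 785 and 650.1 in DEX and 904, 888 and 934 in control. As for Mmp14, TNF arrays were above and CI and DEX arrays below all control arrays. It fell in CI (-0.58, adjusted p = 0.000226), rose in TNF (0.75, adjusted p = 2.79e-06) and fell in DEX (-0.38, adjusted p = 0.00108). Mmp19, a secreted MMP that cuts basement membrane proteins, measured 748 and 779.9 in CI, 505, 498 and 477 in TNF, 728, 518 and 658 in DEX and 548, 563 and 543 in control. It was the single MMP that rose in CI (0.46, SE 0.0996, adjusted p = 0.00523), with both CI arrays above all others. Its TNF and DEX differences, -0.16 and 0.18, were not called (adjusted p = 0.218 and 0.146).

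**Figure D4:**
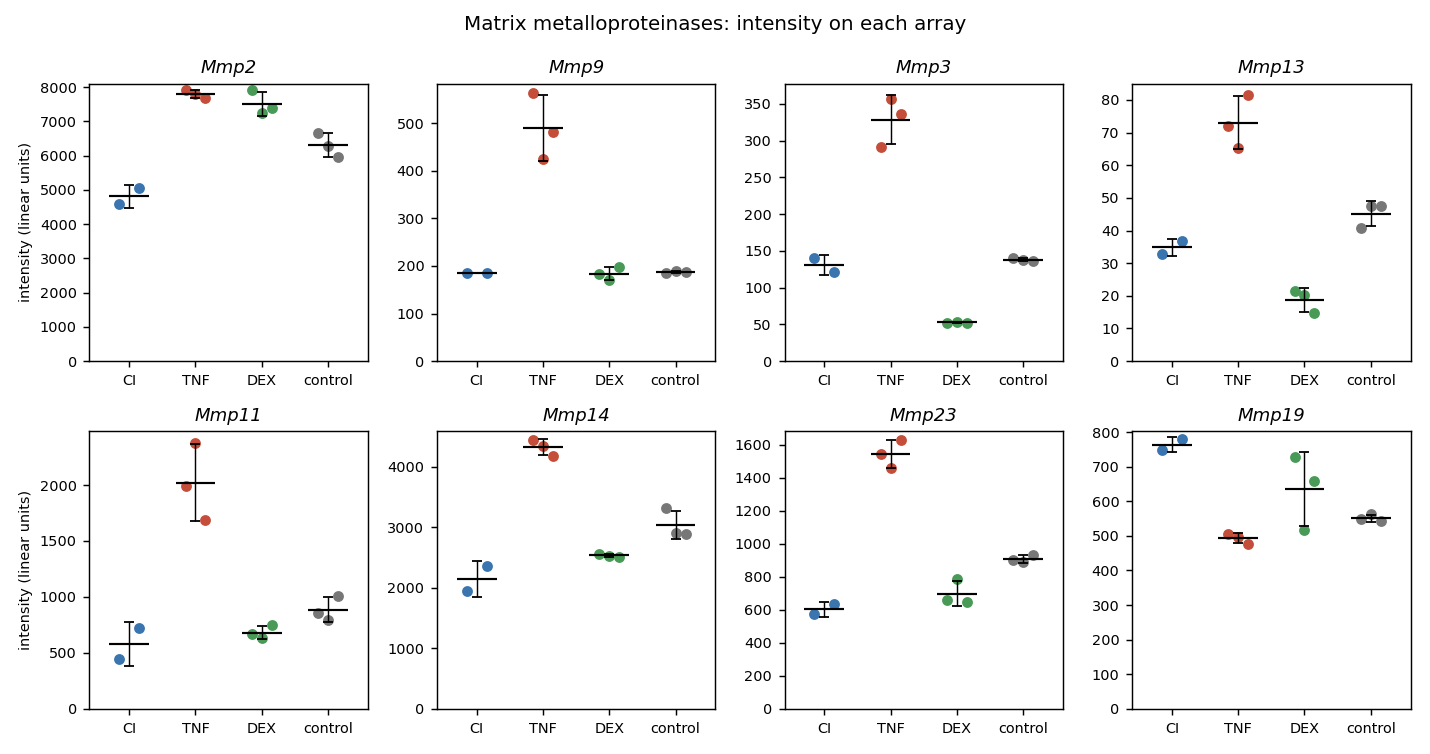
Intensity (linear units, axis from 0, a separate axis for each gene) of the MMP genes described in the text on each CI, TNF, DEX and control array (points), with group mean (line) and SD (bars; n = 2 for CI and 3 for the others). TNF arrays lie above control arrays for Mmp2, Mmp3, Mmp9, Mmp11, Mmp13, Mmp14 and Mmp23, and DEX arrays lie below control arrays for Mmp3, Mmp13, Mmp11, Mmp14 and Mmp23.

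Of 19 tested ADAM genes, 2 rose and 1 fell in CI, 4 rose and 3 fell in TNF, and 1 rose and 3 fell in DEX. Over all tested genes, the shares called in either direction were 17.3%, 25.2% and 27.6%, and the ADAM counts were not tested against them. Both main sheddases rose in TNF. Adam17, which releases TNF alpha from its membrane-bound form, measured 817 and 840.1 in CI, 1115, 1142 and 1105 in TNF, 779.8, 678 and 747 in DEX and 732, 672 and 719 in control. Every TNF array exceeded every other array, and DEX and control arrays overlapped. Adam17 rose in TNF by 0.65 (SE 0.0592, adjusted p = 1.51e-06). Its rise in CI (0.22, adjusted p = 0.0297) was lost with the mean of all probe sets (adjusted p = 0.224) and without control replicate 2 (0.113), CI replicate 1 (0.102) or CI replicate 2 (0.152).

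Adam10, the main sheddase of Notch receptors, measured 1557 and 1520.3 in CI, 2534, 2261 and 2488 in TNF, 1764, 1755 and 1979 in DEX and 1795, 1664 and 1704 in control. The TNF arrays stood above the rest. It rose in TNF (0.49, adjusted p = 4.33e-05), although 1 of its 3 other probe sets above the dim limit differed by -0.10 there and the mean of all gave 0.24 (adjusted p = 0.0155). In CI and DEX its differences were -0.16 and 0.09 (adjusted p = 0.146 and 0.335).

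Adam12 (meltrin alpha), which is known from early adipocyte and muscle differentiation in mice, measured 695 and 629 in CI, 309, 274 and 336 in TNF, 429, 433 and 435 in DEX and 447, 438 and 459.7 in control. CI and TNF arrays lay on opposite sides of the control arrays, and all DEX arrays lay just below them. Adam12 rose in CI (0.54, SE 0.0748, adjusted p = 0.000192) and fell in TNF (-0.53, SE 0.0669, adjusted p = 3.78e-05). TNF was below CI with a log2 difference of -1.07 (adjusted p = 5.53e-08). Adam19 (meltrin beta) measured 228 and 234 in CI, 201, 182 and 199 in TNF, 161, 139 and 174 in DEX and 249.6, 228 and 219 in control. It fell in DEX (-0.51, adjusted p = 8.30e-05), where its dimmer probe set differed by -0.05 and the mean of both gave -0.28 (adjusted p = 0.00161). Its fall in TNF (-0.24, adjusted p = 0.0283) was lost with the mean of its probe sets (adjusted p = 0.0701) and on leaving out TNF replicate 2 (0.113), control replicate 1 (0.107) or control replicate 2 (0.0639).

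Adam9 (meltrin gamma) rose in TNF (0.46, adjusted p = 7.64e-06) and in DEX (0.40, adjusted p = 1.62e-05). It averaged 2884 ± 90.3 in CI (n = 2), 3626 ± 101 in TNF, 3485 ± 17.9 in DEX and 2639 ± 31.1 in control (± SD, n = 3 each). Adam23, an ADAM without the catalytic zinc-binding site that acts in cell adhesion, fell in CI (-0.22, adjusted p = 0.0464), rose in TNF (0.49, adjusted p = 5.64e-05) and fell in DEX (-0.36, adjusted p = 0.000589). Of its 2 other probe sets, the brighter (mean 663, against 736 for the one used) differed by -0.08 in DEX and 0.50 in TNF. The dimmer (mean 69.9) differed the opposite way in DEX, by 0.09, and by 0.01 in TNF. Adam33 fell in TNF (-0.17), and the dim Adam6b fell in DEX (-0.38).

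Among 6 tested ADAMTS proteoglycanases, 1 rose and 1 fell in CI, 3 rose and 1 fell in TNF, and 1 rose and 1 fell in DEX. Over all tested genes, the shares called in either direction were 17.3%, 25.2% and 27.6%. Adamts5 and Adamts1, which cut aggrecan and versican, are neighbours on chromosome 16 with no protein-coding gene between them. Adamts5 measured 1383 and 1299 in CI, 3554, 3165 and 3187 in TNF, 1548, 1485 and 1387 in DEX and 1798, 1517 and 1561 in control. Its TNF arrays all lay far above the others. Adamts5 rose in TNF by 1.02 (SE 0.0722, adjusted p = 1.16e-07). The fall in CI (-0.27, adjusted p = 0.0308) was lost with the mean of its probe sets (adjusted p = 0.0651) and without control replicate 1 (0.121), CI replicate 1 (0.0783) or CI replicate 2 (0.193).

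Adamts1 measured 2754 and 2747 in CI, 5276, 4889 and 4346 in TNF, 5103, 4159.8 and 3459 in DEX and 3566, 3712 and 3048 in control. TNF arrays were above and CI arrays below all control arrays, and DEX arrays were spread widely and overlapped both control and TNF. It rose in TNF (0.49, adjusted p = 0.00576), with differences of -0.32 in CI (adjusted p = 0.108) and 0.29 in DEX (adjusted p = 0.078). The CI difference passed with only CI and control arrays in the fit (adjusted p = 0.0245) and without DEX replicate 1 or 3 (0.0452 and 0.0480), and the DEX difference passed without DEX replicate 3 (0.0075). Adamts15, also a proteoglycanase, measured 237 and 202 in CI, 157, 154 and 169 in TNF, 326, 367 and 336 in DEX and 160.5, 197 and 189.8 in control, with the DEX arrays above all others. It rose in DEX by 0.86 (SE 0.0781, adjusted p = 7.28e-07), and its neighbour on chromosome 9, Adamts8, was not called there (-0.12, adjusted p = 0.205). Adamts15 differed by 0.25 in CI (adjusted p = 0.0661; 0.0423 without CI replicate 2) and by -0.17 in TNF (adjusted p = 0.129; 0.0276 without control replicate 1). Adamts4 rose in TNF (0.26) and fell in DEX (-0.23), and Adamts9 rose in CI (0.29, with another probe set at -0.03) and fell in TNF (-0.25).

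Adamts7 and Adamts12, a related pair that cuts cartilage oligomeric matrix protein, moved in opposite directions in TNF. Adamts7 measured 79.5 and 97.2 in CI, 251, 252 and 189 in TNF, 82.2, 77.0 and 73.5 in DEX and 84.2, 91.4 and 74.7 in control. Its TNF arrays stood apart, and the others overlapped. It rose in TNF by 1.30 (SE 0.0987, adjusted p = 2.25e-07). Adamts12 measured 903 and 801 in CI, 558, 562 and 633 in TNF, 999, 1016 and 974 in DEX and 1005, 916 and 877 in control. All its TNF arrays were the lowest, and it fell there (-0.66, SE 0.0683, adjusted p = 5.46e-06; -0.36 with the mean of both its probe sets, the other of which averaged 13.4, adjusted p = 0.00014). Adamts6 fell in DEX (-0.55, adjusted p = 3.20e-05), with 67.9, 70.7 and 57.9 in DEX against 109.7, 109.6 and 91.2 in control, while its other probe set differed by -0.02 and the mean of both gave -0.29 (adjusted p = 0.00358).

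Adamtsl4, an ADAMTS-like protein without a protease domain that binds fibrillin microfibrils, measured 476 and 499.5 in CI, 748, 773 and 682 in TNF, 1089, 1067 and 1113 in DEX and 681, 626 and 639.9 in control. DEX arrays were the highest, CI arrays the lowest, and the TNF arrays lay just above the control arrays. It rose in DEX by 0.73 (SE 0.0584, adjusted p = 1.67e-07) and fell in CI (-0.40, adjusted p = 0.000704). A small rise in TNF (0.17, adjusted p = 0.0426) was lost in 8 of the 21 alternatives, 5 of which left out 1 array.

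**Figure D5:**
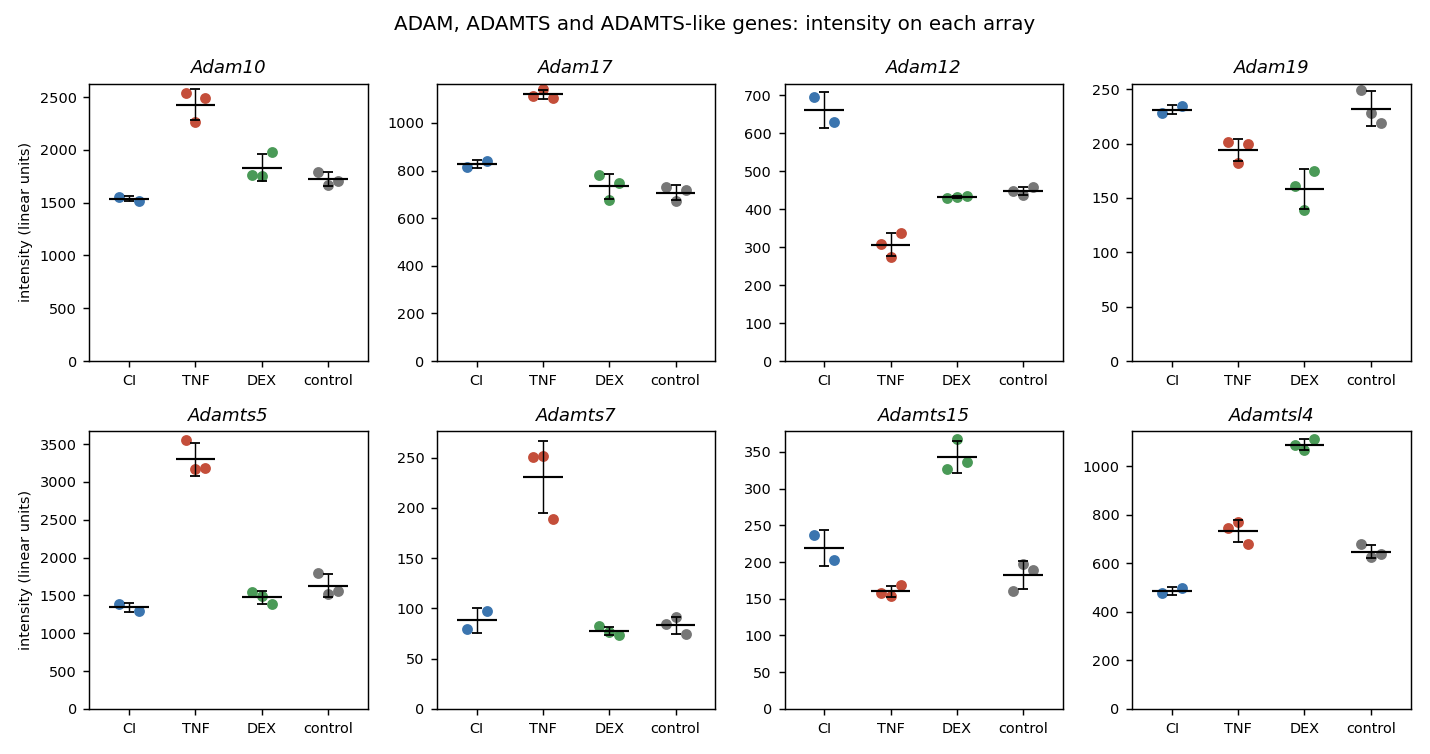
Intensity (linear units, axis from 0, a separate axis for each gene) of Adam10, Adam17, Adam12, Adam19, Adamts5, Adamts7, Adamts15 and Adamtsl4 on each CI, TNF, DEX and control array (points), with group mean (line) and SD (bars; n = 2 for CI and 3 for the others). TNF arrays are the highest for Adam10, Adam17, Adamts5 and Adamts7 and the lowest for Adam12, and DEX arrays are the highest for Adamts15 and Adamtsl4.

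Set against each other, the treatments also differed. In TNF against CI, 19 members were higher and 9 lower, against 18.9% and 17.3% of all tested genes (36.2% in either direction). In DEX against CI, 11 were higher and 10 lower, against 17.1% and 16.9% (34.0% in either direction). In TNF against DEX, 16 were higher and 7 lower, against 18.2% and 18.0% (36.1% in either direction). With the probe sets used, the largest differences in these 3 comparisons were those of Timp4, Mmp3 and Timp1 between TNF and DEX. Timp4 was lower in TNF with a log2 difference of -2.35, and Mmp3 and Timp1 were higher in TNF by 2.32 and 2.23. The other Timp4 probe set differed less from control in both TNF and DEX. Timp2 was higher in both TNF and DEX than in CI, by 0.98 and 1.09.

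By the probe sets used, the 24 tested members with no call against control differed from it by between -0.16 and 0.17. They were Mmp7, Mmp8, Mmp10, Mmp16, Mmp17 and Mmp24, then Adam1a, Adam1b, Adam2, Adam4, Adam7, Adam8, Adam11, Adam15, Adam21, Adam22 and Adam28, and Adamts8, Adamts10, Adamts16, Adamtsl1, Adamtsl2, Adamtsl3 and Adamtsl5. Of these, 8 genes had 10 other probe sets above the dim limit, and 5 of the 10, of Adam15, Adam22 and Adamtsl5, went outside that range, with differences of -0.46 to 0.26. The lowest was a probe set of Adam15, a membrane-bound ADAM, at -0.46 in TNF and -0.40 in DEX, against -0.15 and -0.12 for the one used. Besides Mmp13, the 17 members below the dim limit had intensities of 8.03 to 55.0 on all arrays. They were Mmp1a, Mmp1b, Mmp12 and Mmp20, then Adam3, Adam5, Adam6a, Adam18, Adam24, Adam25, Adam26a, Adam32 and Adam34, and Adamts3, Adamts18, Adamts19 and Adamts20. Several of these ADAMs are known from testis and sperm. With no limit on dim probe sets, Adamts3 was the other dim member with a call against control, in TNF (-0.15, adjusted p = 0.0341). Of the 35 calls against control that had another probe set of the gene above the limit, 3 had one of opposite sign, those of Adam10 in TNF, Adam23 in DEX and Adamts9 in CI.

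Genes that act with these proteases were called as follows, and no list was tested against the shares of all tested genes. Those shares were 8.38% higher and 8.88% lower in CI, 13.9% and 11.2% in TNF, and 14.0% and 13.6% in DEX. Of 13 tested genes for the plasminogen system, protease activation and other inhibitors, 1 rose and 2 fell in CI, 2 rose in TNF and 1 fell in DEX. Reck, a membrane-anchored MMP inhibitor, fell in CI (-0.51, adjusted p = 0.000255) and rose in TNF (0.44, adjusted p = 0.000168). Plat, the tissue plasminogen activator, fell in CI (-0.66) and in DEX (-1.47, adjusted p = 1.07e-05). Of 10 tested partners in ADAM10 and ADAM17 maturation, none was called in CI, 3 rose and 1 fell in TNF, and 3 rose and 2 fell in DEX. Rhbdf2 (iRhom2), which carries ADAM17 to the cell surface, rose in TNF (0.22) and DEX (0.23), and Tspan14, a tetraspanin partner of ADAM10, fell in TNF (-0.53).

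Among 26 tested membrane proteins known to be shed, 2 rose and 5 fell in CI, 13 rose in TNF, and 5 rose and 8 fell in DEX. For this list and those below, the shares of all tested genes were 8.38% higher and 8.88% lower in CI. They were 13.9% and 11.2% in TNF, and 14.0% and 13.6% in DEX. The shed proteins that rose in TNF included the adhesion molecule Vcam1 (2.40, adjusted p = 1.03e-12), the hyaluronan receptor Cd44 (1.06) and the amyloid precursor protein App (0.98). These are RNA levels, and shedding was not measured. Of 16 tested matrix substrates of ADAMTS enzymes, 2 fell in CI, 4 rose and 4 fell in TNF, and 1 rose and 9 fell in DEX. The proteoglycan Vcan (versican) rose in TNF (0.96) and DEX (0.88). Dcn (decorin) fell in CI (-0.78, adjusted p = 0.000449) and in DEX (-1.77, adjusted p = 7.83e-09). Of 9 tested genes for procollagen processing and crosslinking, 2 fell in CI, 5 rose in TNF, and 1 rose and 3 fell in DEX. The crosslinking enzyme Lox fell in CI (-0.73, adjusted p = 0.00028), and its relative Loxl4 rose in TNF (0.63) and DEX (0.22).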

How the data were processed

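RNA of 11 samples of 3T3-L1 adipocytes was measured on Affymetrix arrays with 45101 probe sets. The authors deposited 1 linear intensity per probe set and array. The background correction, summarisation and normalization behind these intensities are not given in the sources used here. Probe sets were named from GEO's platform annotation, in which 34945 had 1 symbol and 932 had several, and the 64 control probe sets and those with several symbols or none were left out.

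The brightest probe set stood for each gene, and genes under the 25th percentile of all probe-set means (an intensity of 51.7) were not tested. With log2(intensity + 16) and no further normalization, limma 3.58.1 in R 4.3.3 fitted all 4 groups together (lmFit, eBayes, two-sided), with 7 residual and 7.59 prior degrees of freedom. Benjamini-Hochberg adjustment ran over 15623 genes, with a threshold of 0.05. The number of arrays, 2 or 3 per group, limits the precision. The scripts were tested on simulated data. Members with an absolute log2 fold change of at least 0.5 past the threshold were described in full, with both gelatinases, Mmp14, the TIMPs, Adam10, Adam17, Adamts1, Adamts5 and Adamts2 (not analysed here) whatever their values. The members and the lists of related genes were chosen with earlier results of these data known. The 21 alternatives covered the pseudocount, the limit on dim probe sets, the choice of probe set, normalization, the fit and leaving out each array. Promoters are RefSeq sequences of GRCm38.p6.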

Additional observations from a re-analysis of the deposited data

How the results depend on the processing

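Without CI replicate 1, 8 members (2 higher, 6 lower) were called in CI against control, in place of 13, with fewer arrays in the fit. Leaving out each array in turn gave 8 to 13 calls in CI, 18 to 24 in TNF and 14 to 18 in DEX against control, and 23 to 28 for TNF against CI, 16 to 20 for DEX against CI and 21 to 25 for TNF against DEX. All other alternatives stayed within 1.5 times of each count. Of 1317 recomputed log2 fold changes of the members described in full, 1279 kept their side of the threshold, 27 lost a call and 11 gained one. Where a difference was called before or after the change of setting, 0 reversed direction. Some differences called in neither did change sign, such as Adam19 in CI (-0.004, at most 0.11) and Timp4 in CI (-0.16, at most 0.09). For the lost calls named in the text, the adjusted p over all alternatives ran between 0.0107 and 0.137 for Timp2 in TNF, 0.00204 and 0.333 for Mmp11 in CI (log2 fold change -0.96 to -0.29), 0.0138 and 0.224 for Adam17 in CI, 0.0102 and 0.113 for Adam19 in TNF, 0.00514 and 0.193 for Adamts5 in CI, 0.00562 and 0.0769 for Mmp14 in DEX, and 0.0164 and 0.186 for Adamtsl4 in TNF. For differences that gained a call it ran between 0.00347 and 0.303 for Adamts1 in CI, 0.00750 and 0.338 for Adamts1 in DEX, 0.0423 and 0.499 for Adamts15 in CI, 0.0276 and 0.397 for Adamts15 in TNF and 0.0103 and 0.255 for Mmp11 in DEX. The cause was not tested.

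Whether arrays with the same replicate number were paired could not be decided. In groups this small, deviations from the group mean are forced to offset each other, so their correlations are not independent. Same-number pairs of control with TNF (0.29, 0.01 and 0.34) and with DEX (0.28, 0.02 and 0.11) correlated positively. Those of control with CI were both -0.06, and those between treatments had both signs. Deviations from the group means correlated between -0.29 and 0.34 in the 15 same-number pairs, of which 6 were over 0.1, against -0.35 to 0.29 in the other 30 pairs. With the replicate number as a block, 14 members were called in CI, 21 in TNF and 17 in DEX against control, 27 in TNF against CI, 17 in DEX against CI and 24 in TNF against DEX. Among the members described in full, the block moved 3 calls, gaining Adamts1 in CI (-0.42, limma's adjusted p = 0.00347) and in DEX (adjusted p = 0.00774) and losing Adamtsl4 in TNF (adjusted p = 0.0516). Signal close to background limits the 18 members below the dim limit.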
